A study of Mus musculus with 2 samples.

Results

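Among the 15692 islet cells kept from both libraries, 71 were selected as cycling, and they are called members in what follows. A cell was a member when at least 2 of 8 cell-cycle genes (Mki67, Top2a, Cenpf, Nusap1, Birc5, Cdk1, Ube2c and Cdc20, called rule genes) had 1 or more UMIs, a UMI (unique molecular identifier) being 1 captured RNA molecule. The library labelled SpopβKO held 33 members among 8842 kept cells, and the library labelled Spop fl/fl held 38 among 6850. Each cell was assigned to the hormone (Ins1 with Ins2, Gcg, Sst or Ppy) that led its UMIs, or to none when no hormone passed 1% of them. Insulin-led members were set against insulin-led non-members. Members of the other classes were not compared gene by gene here.

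The RNA came from pancreatic islets of female mice on a C57BL/6 background at 12 weeks of age, in a group labelled SpopβKO, described as deleting Spop in beta cells alone, and a control group labelled Spop fl/fl. Islets freed with collagenase were picked by hand, kept for 3 days in RPMI with 10 mM glucose, dispersed with trypsin and cleared of dead cells and debris, and single cells were then captured with the 3′ chemistry of 10x Genomics. The labels leave out which Cre line drove the deletion, which exons it removed and how many mice were pooled per library. There was 1 library per genotype, so no test of the genotype was possible, and every interval given is a 95% interval that covers counting error only.

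The libraries held 89977773 UMIs in 10033 barcodes (SpopβKO) and 82541585 UMIs in 7768 barcodes (Spop fl/fl). They shared 21 barcode sequences, and 0 of these were members. Spop itself, which encodes an adaptor that brings substrates to the CUL3 ubiquitin ligase, was not lower in insulin-led non-members of the library labelled SpopβKO, at 79.6 CPM (summed UMIs put on one total per class, after TMM scaling) against 63.1 CPM in those of the Spop fl/fl library. The log2 ratio was 0.34 (0.27 to 0.40). The deleted exons are not given and counts per gene hold no read positions. Whether the 3′ tags fell in the deleted exons is thus not known, and these counts do not check the label. Among insulin-led members Spop had 35 UMIs in the SpopβKO-labelled library and 73 in the Spop fl/fl library, 76.2 CPM against 119 CPM, a log2 ratio of −0.65 (−1.27 to −0.05).

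A dividing cell passes through DNA replication in S phase and then through G2 and mitosis. E2F factors switch on the replication genes (the MCM helicase, the sliding clamp Pcna, the enzymes that make nucleotides), and the MuvB complex with B-MYB and FOXM1 switches on the mitotic genes (cyclin B, kinesins, kinetochore and spindle proteins). Adult beta cells divide rarely and are held back by CDK inhibitors, and prolactin receptor signalling during pregnancy is a known stimulus of their division in mice.

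All 8 rule genes act late in the cycle. Mki67 (chr7:135689784-135716361, minus strand, mm10) coats mitotic chromosomes, Top2a (chr11:98992943-99024189, minus) untangles DNA, Cenpf (chr1:189640606-189688086, minus) sits at kinetochores, and Nusap1 (chr2:119618298-119651244, plus) bundles spindle microtubules. Birc5 (chr11:117849251-117855743, plus) is the survivin subunit of the chromosomal passenger complex, and Cdk1 (chr10:69335146-69352938, minus) is the mitotic kinase. Ube2c (chr2:164769898-164778822, plus) and Cdc20 (chr4:118432901-118437352, minus) are the ubiquitin-conjugating enzyme and the activator of the anaphase-promoting complex. The promoters of 4 rule genes and of 2 replication genes, the MCM helicase subunit Mcm5 and the chromatin protein Uhrf1, are shown because the 2 groups of genes parted in the cells described below. Each stretch is the 150 bases before the RefSeq start on GRCm38.p6, 5′ to 3′ along the gene's strand. Capitals mark the CHR element (TTTGAA, or TTCAAA when read on the other strand), the CCAAT box (CCAAT or ATTGG) and an E2F motif (GGCGGGAA or TTCCCGCC).
Cdk1: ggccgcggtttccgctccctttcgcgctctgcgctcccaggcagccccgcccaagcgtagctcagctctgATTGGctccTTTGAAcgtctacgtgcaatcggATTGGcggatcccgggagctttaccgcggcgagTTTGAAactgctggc
Top2a: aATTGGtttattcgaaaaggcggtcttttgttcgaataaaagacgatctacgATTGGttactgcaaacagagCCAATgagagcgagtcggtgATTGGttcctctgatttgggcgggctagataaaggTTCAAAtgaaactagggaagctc
Ube2c: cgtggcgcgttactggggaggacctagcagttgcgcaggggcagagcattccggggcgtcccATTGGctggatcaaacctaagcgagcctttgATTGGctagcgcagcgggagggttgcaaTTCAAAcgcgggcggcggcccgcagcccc
Cdc20: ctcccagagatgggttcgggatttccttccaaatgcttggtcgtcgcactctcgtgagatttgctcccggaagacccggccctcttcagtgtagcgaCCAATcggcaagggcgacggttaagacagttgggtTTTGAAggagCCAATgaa
Mcm5: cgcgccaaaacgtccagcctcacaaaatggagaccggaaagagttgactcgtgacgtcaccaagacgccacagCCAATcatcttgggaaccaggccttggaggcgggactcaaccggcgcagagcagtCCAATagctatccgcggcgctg
Uhrf1: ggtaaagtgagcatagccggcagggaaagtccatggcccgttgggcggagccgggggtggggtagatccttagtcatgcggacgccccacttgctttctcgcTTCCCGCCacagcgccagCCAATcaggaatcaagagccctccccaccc
The stretches lie at chr10:69352913-69353062, chr11:99024190-99024339 and chr4:118437344-118437493 on the minus strand and at chr2:164769779-164769928, chr8:75109359-75109508 and chr17:56303187-56303336 on the plus strand. The 4 rule genes shown were picked after the search because each holds a CHR element and a CCAAT box. In the 250 bases before the start, the CHR letters were found in 5 of 8 rule genes, in 21 of 65 promoters of a G2/M list (32.31%), in 7 of 52 of an S phase list (13.46%) and in 16.27% of all 27025 promoters. The CCAAT letters were found in 6 of 8 rule genes, in 72.31% of the G2/M list, in 63.46% of the S phase list and in 34.46% of all promoters. The E2F letters were found in 0 of 8 rule genes, in 0 of 65 G2/M promoters, in 5 of 52 S phase promoters (9.62%) and in 1.88% of all. The motifs do not overlap one another in the stretches shown, and such matches describe letters, not bound sites.

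Most members carried the rule at its threshold. In the SpopβKO-labelled library 20 members had exactly 2 rule genes and 13 had 3 or more, with 3 cells at all 8. Of the Spop fl/fl members 37 had exactly 2, 1 had 3 and 0 had more. The share of kept cells with 3 or more rule genes was 0.147% (0.0783% to 0.251%) in the SpopβKO-labelled library and 0.0146% (0.00037% to 0.0813%) in the Spop fl/fl library. At 4 or more it was 9 cells (0.102%, 0.0466% to 0.193%) against 0 of 6850. That 0 allows a share of up to 0.0438% by the limit of 3 cells, and its Clopper-Pearson interval reaches 0.0538% and overlaps that of the 9 cells. At 2 or more the order was the other way, 0.373% (0.257% to 0.524%) in the SpopβKO-labelled library and 0.555% (0.393% to 0.761%) in the Spop fl/fl library, with overlapping intervals.

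**Figure D1:**
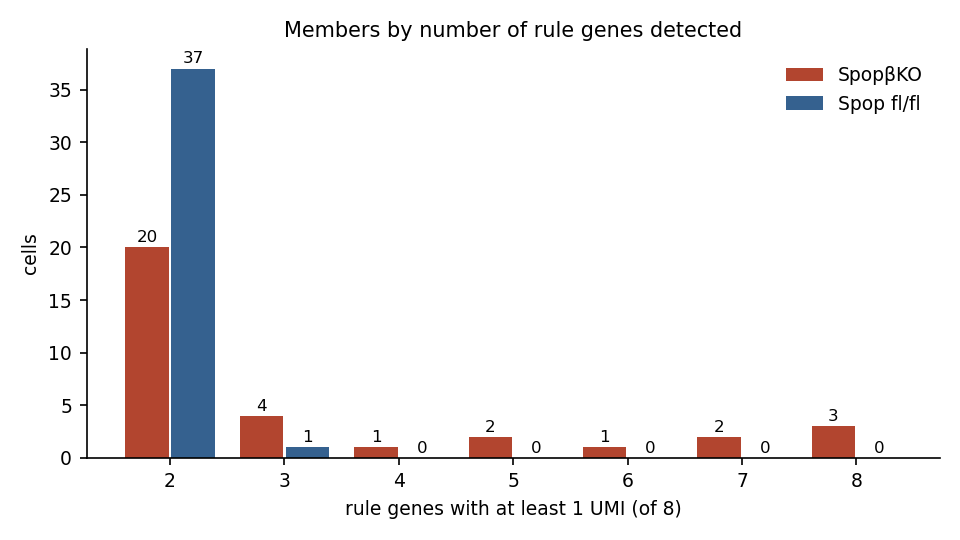
Number of member cells (y axis) by the number of rule genes with at least 1 UMI (x axis), with the library labelled SpopβKO left of the Spop fl/fl library. Exactly 2 rule genes were seen in 20 and 37 members, 3 or more in 13 and 1.

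The rule-gene UMIs were concentrated in few cells of 1 library. The 33 SpopβKO-labelled members held 541 of that library's 1002 rule-gene UMIs, and the 13 with 3 or more rule genes held 495 of them. The 38 Spop fl/fl members held 81 of 561. Of the members with exactly 2 rule genes, 17 of 20 in the SpopβKO-labelled library and 33 of 37 in the Spop fl/fl library had a single UMI of each gene. Mki67, the most often detected, had at least 1 UMI in 133 SpopβKO-labelled cells, with a maximum of 18 in a cell, and in 141 Spop fl/fl cells, with a maximum of 2. Just inside the threshold, the 20 and 37 members with exactly 2 rule genes had a median of 2 rule-gene UMIs, and just outside it 437 SpopβKO-labelled and 451 Spop fl/fl cells with exactly 1 had a median of 1. The median depths were 20598.5 UMIs inside and 13903 UMIs outside in the SpopβKO-labelled library, and 26147 UMIs inside and 15446 UMIs outside in the Spop fl/fl library.

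Detection at the threshold moved with depth. Members were deeper than non-members, with a median of 21180 UMIs against 7618 UMIs in the SpopβKO-labelled library and 27893.5 UMIs against 8822.5 UMIs in the Spop fl/fl library. In the SpopβKO-labelled library cells with exactly 2 rule genes made up 0.168% of the cells with 5000 to 10000 UMIs, 0.173% at 10000 to 20000, 1.01% at 20000 to 40000 and 0 of the 62 cells above 40000, with a Clopper-Pearson interval that reaches 5.78%. The Spop fl/fl shares in the same bins were 0.231%, 0.566%, 1.56% and 3.70%, the last of 189 cells. With each cell thinned to 5000 UMIs, which left out 2999 SpopβKO-labelled and 1654 Spop fl/fl cells, 10 of 5843 (0.171%, 0.0821% to 0.315%) SpopβKO-labelled cells and 5 of 5196 (0.0962%, 0.0313% to 0.224%) Spop fl/fl cells still met the rule. Of these, 8 (0.137%, 0.0591% to 0.270%) and 0 still had 3 or more rule genes. The 0 allows a share of up to 0.0577% by the limit of 3 cells, and its Clopper-Pearson interval reaches 0.0710% and overlaps that of the 8. Members at the threshold were also found among glucagon-led alpha-type cells, where 0 members reached 3 rule genes. Their members at exactly 2 were 5 of 1187 (0.421%, 0.137% to 0.980%) in the SpopβKO-labelled library and 17 of 1874 (0.907%, 0.529% to 1.45%) in the Spop fl/fl library.

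**Figure D2:**
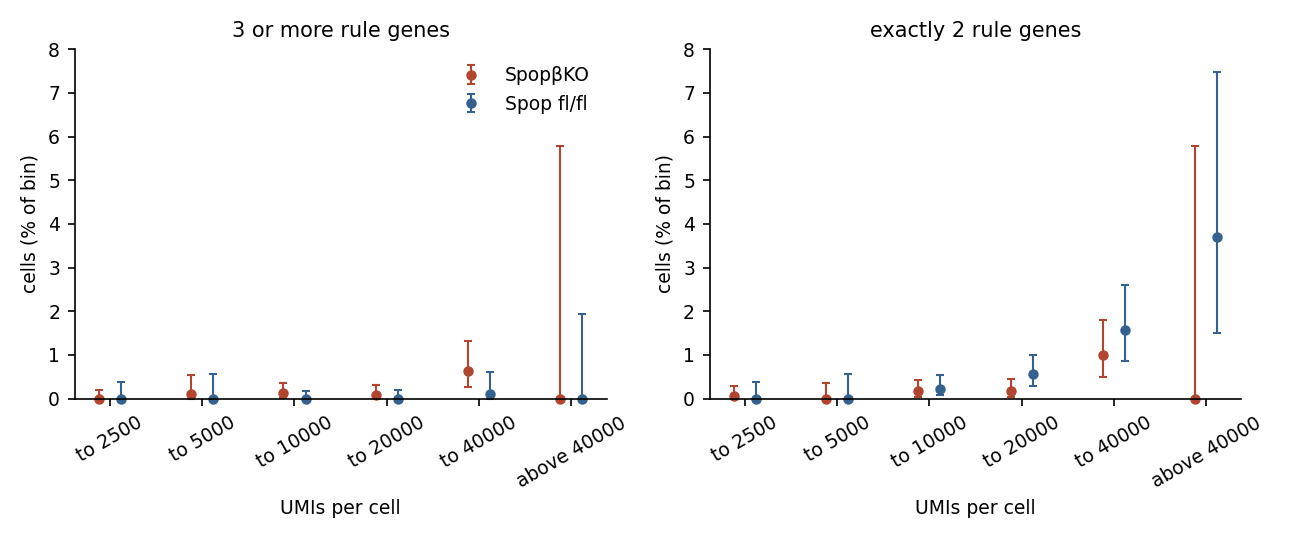
Percent of cells in each bin of UMIs per cell with exactly 2 rule genes and with 3 or more, by library, with Clopper-Pearson 95% intervals. Exactly 2 rule genes were seen in 1.01% of SpopβKO-labelled and 1.56% of Spop fl/fl cells at 20000 to 40000 UMIs, and 3 or more in 7 of 1092 SpopβKO-labelled and 1 of 897 Spop fl/fl cells of that bin.

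Genes that the rule did not use separated these 2 kinds of member. Over a list of 78 other G2/M genes, members with 3 or more rule genes in the SpopβKO-labelled library had 74.7 UMIs per 10000 (71.3 to 78.2), against 10.8 in non-members. Members with exactly 2 had 12.0 (11.0 to 13.2) in the SpopβKO-labelled library and 12.7 (12.1 to 13.45) in the Spop fl/fl library, where non-members had 11.7. Cells with 1 rule gene had 11.8 and 12.5, within those intervals. Over 68 S phase genes, members with 3 or more rule genes in the SpopβKO-labelled library had 41.5 UMIs per 10000 (39.0 to 44.2), against 7.71 in non-members. Members with exactly 2 had 10.0 (9.01 to 11.1) in that library, above the 8.59 (8.38 to 8.81) of cells with 1 rule gene. In the Spop fl/fl library members with exactly 2 had 9.68 (9.08 to 10.3), which overlapped the 10.1 (9.91 to 10.3) of cells with 1, and non-members had 9.35. At the threshold, members thus overlapped the cells just outside it on the G2/M list in both libraries, and lay above them on the S phase list in the SpopβKO-labelled library.

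Cell by cell, 11 of the 13 SpopβKO-labelled members with 3 or more rule genes lay above the 99th percentile of their library's non-members on at least 1 of the lists, and 8 lay above it on both. That percentile was 24.8 UMIs per 10000 for the S phase list and 30.1 for the G2/M list. Of the members with exactly 2 rule genes, 2 of 20 in the SpopβKO-labelled library passed it, both on the S phase list alone. One had 828 UMIs in all and the other carried macrophage markers. Among Spop fl/fl members 0 of 37 with exactly 2, and 0 of 1 with 3, passed either percentile (25.0 and 27.2). By this measure, with genes outside the rule, 13 SpopβKO-labelled members stood out, and the other 20 of that library and all 38 of the Spop fl/fl library did not. The label cycling was thus not borne out for most members by this measure, and members are called here by their number of rule genes.

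**Figure D3:**
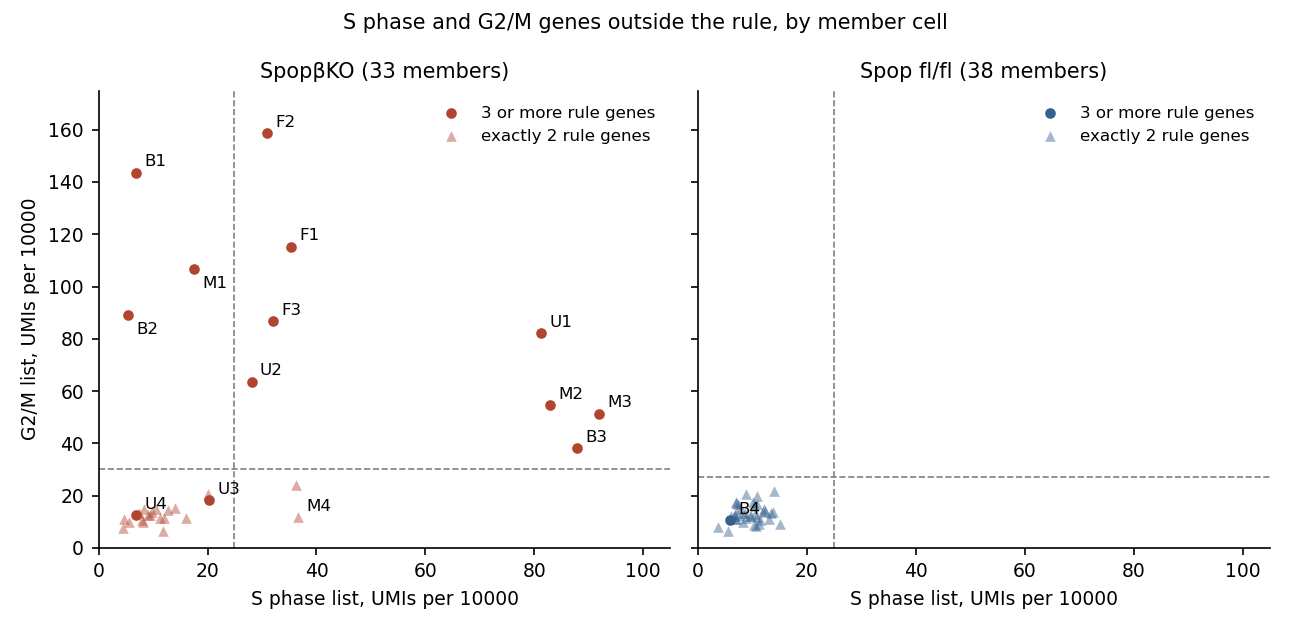
S phase list (x axis) and G2/M list (y axis) of each member in UMIs per 10000, rule genes left out, in the library labelled SpopβKO (left) and the Spop fl/fl library (right). Members with 3 or more rule genes in the left panel reach 91.9 on the S phase axis and 159 on the G2/M axis, and the Spop fl/fl members all lie under 25.0 and 27.2, the 99th percentiles of their non-members.

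The cells with a full cycle programme were of several kinds. Their types were read from marker genes of which at least 4 of 8 macrophage, 4 of 9 mesenchymal or 4 of 7 endothelial genes, or, in insulin-led cells, 3 of 5 beta genes beside the hormones (Mafa, Nkx6-1, Slc2a2, G6pc2, Ucn3) had a UMI. These minimums were set after the values had been seen. A cell that passed a macrophage, mesenchymal or endothelial minimum was given that type even where it also passed the beta minimum. Of the 13 SpopβKO-labelled members with 3 or more rule genes, 3 were typed as beta (named B1 to B3) and 3 as macrophage (M1 to M3). A further 3 were typed as mesenchymal (F1 to F3), and 4 passed none of these minimums (U1 to U4). M2 was insulin-led with 7 macrophage and 3 beta markers, and so passed both minimums. Whether M2 was a doublet was not tested. Another macrophage-marker member (M4) had exactly 2 rule genes. The Spop fl/fl member with 3 rule genes carried beta markers (B4).

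Against all cells of the same marker type, cells with 3 or more rule genes were a small part of the beta type. Of 2293 beta-marker cells in the SpopβKO-labelled library, 3 had 3 or more rule genes (0.131%, 0.0270% to 0.382%), and of 882 in the Spop fl/fl library 1 had (0.113%, 0.00287% to 0.630%). Macrophage-marker cells were 3 of 63 (4.76%, 0.993% to 13.3%) in the SpopβKO-labelled library and 0 of 15 in the Spop fl/fl library, which allows a share of up to 20%. Mesenchymal-marker cells were 3 of 38 (7.89%, 1.66% to 21.4%) and 0 of 9, which allows up to 33.3%. The intervals of the 2 libraries overlapped in each type. Within the SpopβKO-labelled library the intervals of the macrophage and mesenchymal types lay above that of the beta type. This order rests on 3 cells per type and on intervals of counting error in 1 library, and gives no test between types. The types had unlike minimums, and M2 counted as macrophage alone. Their non-members had median depths of 15918 (beta), 8654 (macrophage) and 15797 UMIs (mesenchymal) there.

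Cell B1 had the fullest G2/M programme of any beta-marker cell. It had 23534 UMIs, 47.1% of them insulin, all 5 beta markers and all 8 rule genes with 84 UMIs. It carried 66 of the 78 other G2/M genes at 143.6 UMIs per 10000 but only 14 of the 68 S phase genes at 6.80. That S phase value lay between the medians of beta-marker non-members (6.13) and of all non-members (7.36) of its library. The mitotic regulators in it included 10 UMIs of cyclin B1 (Ccnb1), 16 of the spindle motility receptor Hmmr, 14 of the midzone organiser Prc1, 8 of the kinase Plk1 and 39 of Ube2s, the chain-elongating partner of Ube2c. It had 1 UMI of Pcna and 0 of Mcm2 and Ccne2. Beside 2283 beta-marker non-members of its library, the summed beta identity list stood at the 94.3 percentile, a sum made mostly of insulin. Single beta genes differed, with the insulin activator Mafa at the 80.2 percentile (23 UMIs) and Ins1 at the 92.7 (4409 UMIs). The amyloid peptide gene Iapp stood at the 39.7 percentile and the beta-cell transcription factors Pdx1 and Nkx6-1 at the 42.9 and 12.1, on 2 UMIs each.

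Cell B2 showed the same late pattern at a lower depth. It had 7533 UMIs, 11.2% of them insulin, 4 of 5 beta markers and 5 rule genes with 8 UMIs. Its G2/M list stood at 88.9 UMIs per 10000 over 33 genes, with 4 UMIs of Hmmr and 1 of Ccnb1, and its S phase list at 5.31 over 4 genes. Mafa and the prolactin receptor Prlr had 0 UMIs in it, and the beta identity list stood at the 54.0 percentile.

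Cell B3 was high on both lists, and more so on the S phase list. It had 21188 UMIs, 17.3% of them insulin, all 5 beta markers and 3 rule genes with 8 UMIs, 5 of which were Top2a. The S phase list stood at 87.8 UMIs per 10000 over 57 of 68 genes and the G2/M list at 38.2 over 29 of 78. Both values were above all 2283 beta-marker non-members, whose medians were 6.13 and 10.4. Replication genes included 15 UMIs of Pcna, 7 of Mcm2, 5 of Mcm5, 6 of Mcm7, 8 of the DNA ligase Lig1 and 3 of the G1/S cyclin Ccne2. Its DNA repair list was above all 2283 reference cells, and its nucleotide synthesis list stood at the 99.9 percentile, against 10.7 in B1 and 0 in B2. It had 13 UMIs of Mafa, 31 of Prlr (92.9 percentile) and 14 of cyclin D2 (Ccnd2), the D-type cyclin of beta cells (38.4 percentile).

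Cells B1 to B3 all lay below the median of beta-marker non-members on the integrated stress response list. This list, which holds Ddit3 (the factor CHOP) and other ATF4 targets, summed to 4.25, 6.64 and 8.02 UMIs per 10000 in B1, B2 and B3, against a median of 25.2 in the reference cells. These values stood at the 2.63, 9.59 and 15.6 percentiles. The low values were not shared by U2, U3 and U4, insulin-led members of that library with 3 or more rule genes and no marker set. The list summed to 50.5, 76.7 and 53.6 in them. Low values were not particular to beta-marker cells. The list summed to 17.5, 12.8, 7.01 and 15.3 in M1 to M4, where macrophage-marker non-members had a median of 12.7. It summed to 10.7 in U1, and to 24.3, 28.2 and 25.7 in F1 to F3. Endoplasmic reticulum chaperones stood at the 81.5, 99.6 and 18.2 percentiles in B1, B2 and B3, and cytosolic heat shock genes at the 10.6, 77.0 and 49.8. The p53 target list stood at the 3.37, 22.4 and 41.7 percentiles in B1, B2 and B3, and its member Cdkn1a, a CDK inhibitor, had 0 UMIs in each of these 3. Spop had 3 UMIs in B1, 0 in B2 and 5 in B3. Immediate early genes differed among them, at the 0.31, 98.7 and 81.1 percentiles. Cell B4 of the Spop fl/fl library went with its non-members in the lists, with the G2/M list at the 37.3 percentile and the integrated stress response list at the 74.4 percentile of beta-marker cells. It had 45 UMIs of Ddit3 and 7 of Cdkn1a. So few cells give no test, and the percentiles are descriptions.

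The macrophage-marker members were spread over the cycle. M2 and M3 had S phase values of 82.8 and 91.9 UMIs per 10000 and G2/M values of 54.7 and 51.4, with 29 and 14 UMIs of Pcna. M1 had all 8 rule genes with 104 UMIs, an S phase value of 17.5 and a G2/M value of 107. M4 had 36.5 on the S phase list over 20 genes and 11.8 on the G2/M list. M1 to M4 carried 8, 7, 8 and 8 of the 8 macrophage markers, and the complement gene C1qb had 82, 51, 49 and 16 UMIs in them. Insulin made up 8.52%, 2.41%, 0.66% and 1.00% of their UMIs, so that 3 of the 4 were counted as insulin-led by the 1% rule. Among macrophage-marker non-members the median was 1.08% in the SpopβKO-labelled library and 0.134% in the Spop fl/fl library.

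The mesenchymal-marker members F1 to F3 had G2/M values of 115, 159 and 86.6 and S phase values of 35.3, 30.9 and 32.1 UMIs per 10000. The collagen gene Col1a1 had 75, 87 and 17 UMIs in them. F1 had the most rule-gene UMIs of any cell, 133 over all 8 genes. F2 had 13.3% mitochondrial UMIs, near the 15% limit, and left the set when the limit was 10%. Of the cells without a marker set, U1 had 7 rule genes, 81.2 on the S phase list and 82.0 on the G2/M list, 126 UMIs of vimentin (Vim) and 18 of periostin (Postn), and 0 of 5 beta markers. U2 had 5 rule genes at 5343 UMIs and a G2/M value of 63.6. U3 and U4, with 3 rule-gene UMIs each, had G2/M values of 18.1 and 12.4, within the range of non-members, beside 10 and 9 UMIs of Cdkn1a.

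**Figure D4:**
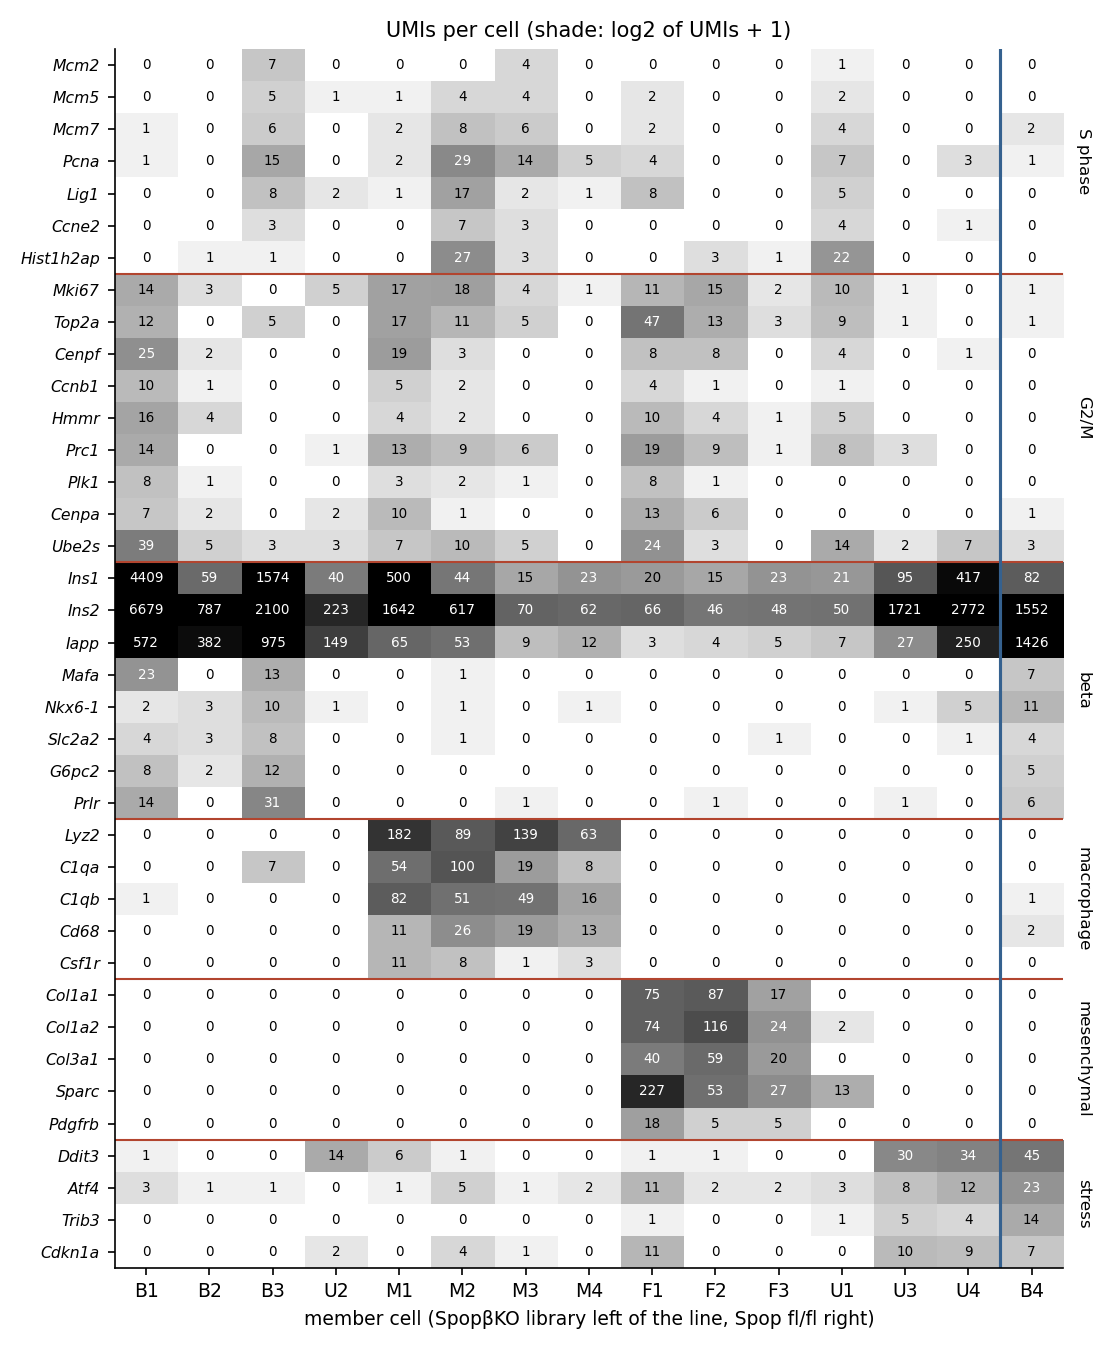
UMIs of selected cycle, identity and stress genes (rows) in the 15 members described one by one (columns), with the library labelled SpopβKO left of the line and Spop fl/fl right of it. Shading is log2 of UMIs plus 1. B1 has Ccnb1, Hmmr and Plk1 with Pcna at 1, and B3 has Pcna, Mcm2 and Lig1 with Ccnb1 at 0.

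Summed over insulin-led members, the cycle lists were higher than in insulin-led non-members in the SpopβKO-labelled library and close to them in the Spop fl/fl library. The sums covered 24 and 19 members and 7188 and 3994 non-members, on a TMM-scaled CPM scale. A gene counts as higher or lower in a list where the interval of its log2 ratio excludes 0, and as measured where it had a member UMI, or at least 20 non-member UMIs when lower. By this criterion 8.17% of 12840 measured genes were higher and 5.66% lower in the SpopβKO-labelled library, and 5.54% of 12939 were higher and 7.34% lower in the Spop fl/fl library. In the SpopβKO-labelled library 62 of all 78 G2/M genes were higher, 0 lower and 5 not measured (median log2 ratio of the measured genes 3.72), and 43 of 68 S phase genes were higher and 0 lower, with 66 measured (1.79). For the Spop fl/fl members 3 of 78 G2/M genes were higher and 2 lower, with 44 measured (0.40), and 1 of 68 S phase genes was higher and 2 lower, with 56 measured (0.02). The median over all measured genes was −0.02 and −0.01. Medians of sparse lists lean upward, because a gene with no member UMI is often not measured. The log2 ratio of the summed G2/M counts was 1.38 in the SpopβKO-labelled library and −0.06 in the Spop fl/fl library, and that of the S phase counts was 1.19 and −0.12. Part of the first sum came from the 4 insulin-led members with macrophage or mesenchymal markers: without them the ratios were 1.00 and 0.71, and 44 G2/M and 23 S phase genes were higher.

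The other cycle lists in the SpopβKO-labelled members held 26 of 30 kinesin and spindle genes higher (log2 ratio of the summed counts 1.67), 21 of 35 centromere and kinetochore genes (1.06), 11 of 22 DNA repair genes (1.53), 12 of 18 condensin and cohesin genes (0.72), 8 of 17 cyclins and CDKs (−0.07) and 19 of 37 histone and chromatin genes (0.42), with 0, 0, 0, 0, 1 and 2 lower. The cyclin and CDK sum was led by Ccnd2, which was lower. Without the marker-carrying members the counts higher were 17 of 30, 14 of 35, 6 of 22, 7 of 18, 6 of 17 and 3 of 37, and the ratios 1.15, 0.70, 0.94, 0.53, −0.14 and 0.14, so the histone and chromatin counts rested mostly on cells with markers of other types. Fewer regulators were higher: 6 of 22 cycle transcription factors were higher and 1 lower (0.21), as were 2 and 1 of 23 anaphase-promoting and SCF ligase genes (0.10) and 2 and 1 of 17 CDK inhibitors (−0.11). The same lists in the Spop fl/fl members had 0 higher and 2 lower of 22, 0 and 4 of 23, and 1 and 1 of 17. Hmmr had 27 UMIs in these members (54.9 CPM against 0.32 CPM in non-members), a log2 ratio of 7.43 (6.56 to 8.31), and 0 UMIs in the Spop fl/fl members. The replication clamp Pcna had 138 CPM against 43.1 CPM in non-members, a log2 ratio of 1.68 (1.31 to 2.03), in the SpopβKO-labelled library, and 60.9 CPM against 79.0 CPM, a ratio of −0.38 (−0.87 to 0.08), in the Spop fl/fl library. Ccnd2 was lower in the SpopβKO-labelled members, 567 CPM against 806 CPM (−0.51, −0.68 to −0.34), and stood at 1012 CPM against 991 CPM in the Spop fl/fl members (0.03, −0.08 to 0.14).

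Outside the rule, 5 listed cycle genes had intervals above 0 in both libraries. Over all measured genes that share was 8.17% in the SpopβKO-labelled and 5.54% in the Spop fl/fl library. It was not counted for both libraries together, so the 5 genes are not set against a background. The spindle assembly factor Tpx2 had log2 ratios of 5.15 in the SpopβKO-labelled library and 1.92 in the Spop fl/fl library, the kinesin Kif20b 3.47 and 1.76, and the ubiquitin ligase G2e3 1.30 and 0.91. The repair gene Brca2 had 2.19 and 1.03, and the linker histone Hist1h1b 5.04 and 2.11. In the Spop fl/fl members they rested on 4, 8, 16, 12 and 5 UMIs. Of the 41 Hist1h1b UMIs in SpopβKO-labelled members, 35 lay in the macrophage-marker cell M2. Without the marker-carrying members Hist1h1b had 2 UMIs and a ratio of 0.87 there, and the other 4 genes had 4.68, 3.12, 1.04 and 2.10.

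**Figure D5:**
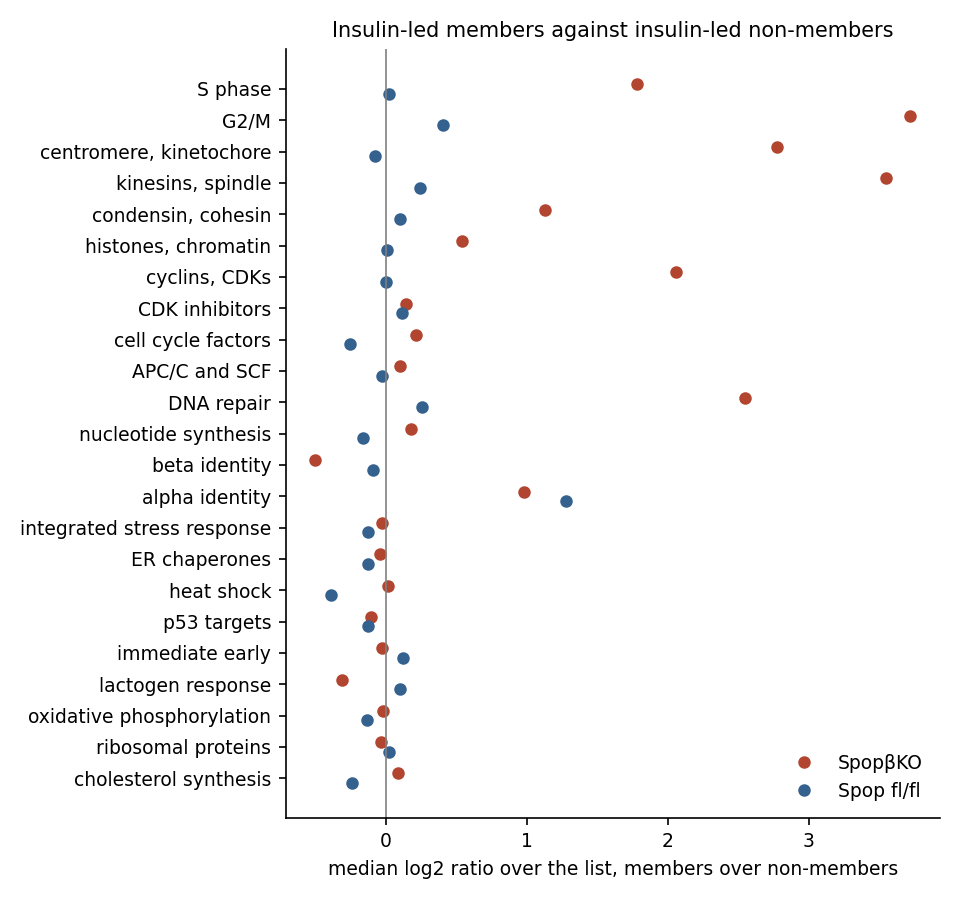
Median log2 ratio of members over non-members for each gene list in insulin-led cells, with the library labelled SpopβKO above the Spop fl/fl library in each row. The G2/M and S phase lists stand at 3.72 and 1.79 in the SpopβKO-labelled library and at 0.40 and 0.02 in the Spop fl/fl library, and medians of sparse lists lean upward.

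Few genes differed in the same direction in both libraries. With a limit of at least 2-fold, at least 20 UMIs in the higher sum and an interval excluding no difference, 5 of 6769 genes (0.0739%) were higher and 14 (0.207%) lower in members of both, rule genes left out. In the SpopβKO-labelled library alone 139 of 8430 (1.65%) were higher and 257 (3.05%) lower, and in the Spop fl/fl library 48 of 8569 (0.56%) were higher and 161 (1.88%) lower. The 139 included 12 G2/M and 6 S phase genes, and the 48 included 0 of either list.

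None of the 5 genes higher in both libraries belongs to a cycle list. They were Fxyd5, a regulator of the sodium pump (log2 ratio 4.16 in the SpopβKO-labelled and 3.91 in the Spop fl/fl library), the matrix protein Sparc (2.93 and 3.56), the membrane protein Basp1 (2.90 and 1.94), the LIM protein Crip1 (1.15 and 1.61) and the ETS factor Etv1 (1.04 and 1.81). Markers of other cells moved with them. All 20 Fxyd5 and 41 Sparc UMIs of the Spop fl/fl members lay in 1 endothelial-marker cell. Without the members that carried macrophage, mesenchymal or endothelial markers, Fxyd5 and Sparc had 0 UMIs in members of each library, and the ratios were −0.26 and 1.65 for Basp1 and −0.02 and 0.47 for Crip1. Etv1 stood at 1.23 and 1.79 without them, but at 0.30 and −0.31 without cells that had a second hormone above 1% of UMIs, and at 0.75 and 1.47 when non-members were weighted to the depth of the members.

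Summed marker sets show the same cells. Macrophage markers reached 19.3 UMIs per 10000 in insulin-led SpopβKO-labelled members against 0.807 in non-members, with all 8 genes detected. Over single members they ran between 0 and 161 with a median of 0. In the Spop fl/fl members they stood at 0.317 against 0.146, with C1qc and Adgre1 at 0. Endothelial markers stood at 0.0639 against 0.108 in the SpopβKO-labelled library, and at 0.551 against 0.109 in the Spop fl/fl library, with all 7 genes detected and 1 member passing the marker minimum. Mesenchymal markers stood at 2.02 against 0.136 in the SpopβKO-labelled library, with 6 of 9 genes detected, and at 0.819 against 0.0725 in the Spop fl/fl library, with 4 of 9 detected and Col1a1, Col3a1 and Dcn at 0. Over single members they ran between 0 and 305 in the first library and between 0 and 12.4 in the second, with a median of 0 in each. In the Spop fl/fl members 41 of the 49 UMIs were Sparc, all of them in the 1 endothelial-marker member. Of the Spop fl/fl members 0 passed the mesenchymal minimum. Acinar markers stood at 0.320 against 0.364 (SpopβKO) and 0.100 against 0.0641 (Spop fl/fl).

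The 14 genes lower in both libraries included the islet hormone Ppy, at log2 ratios of −3.01 (−3.44 to −2.60) in the SpopβKO-labelled and −1.51 (−1.71 to −1.31) in the Spop fl/fl library. A set of 5 pancreatic polypeptide cell markers, on the scale of the marker sets above, was also lower in its sums over members. These were 11.1 against 20.8 (SpopβKO) and 13.2 against 15.6 (Spop fl/fl). Its medians over single cells were not lower, at 4.07 against 3.54 and 3.37 against 3.00. Its maxima were 70.4 in members against 1504 in non-members, and 68.1 against 1064. Whether few non-members with much Ppy set the Ppy ratios was not tested. Gm42418 (−1.03 and −1.66), AY036118 (−1.01 and −2.29) and the mitochondrial leucyl-tRNA synthetase Lars2 (−1.06 and −1.28) were lower too. Gm42418 and AY036118 overlap on opposite strands of chromosome 17, and the assignment of reads to them was not checked. When non-members were weighted to the depth of the members, these 3 ratios were −0.17 and −0.36, 0.10 and −0.84, and −0.18 and 0.06, so they moved with depth. The other 10 were Wdr38, 2900093K20Rik, Epm2aip1, Ranbp6, Abhd18, Zbtb43, Rrnad1, Mfap3, Ncdn and Iqcc, and 8 of them rested on 9 or fewer member UMIs in each library.

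Beta identity genes were lower in the SpopβKO-labelled members. Of 32 genes, 17 were lower and 0 higher (median −0.50) in the SpopβKO-labelled library, and 7 were lower and 5 higher (−0.09) in the Spop fl/fl library. Intervals are narrow for abundant genes, so the list was also read among genes of at least 100 CPM over members and non-members together, a limit set after the values were seen. There, 15 of 21 beta identity genes were lower in the SpopβKO-labelled members, where 19% of 1486 genes were, and 7 of 17 were lower in the Spop fl/fl members, where 30% of 1553 were. Without the marker-carrying members 15 were lower and 1 higher (−0.34) in the SpopβKO-labelled library. Ins1 had a log2 ratio of −0.25 (−0.27 to −0.23) in the SpopβKO-labelled and −1.39 (−1.44 to −1.34) in the Spop fl/fl library, and Ins2 had −0.62 (−0.63 to −0.60) and −1.05 (−1.07 to −1.04). The secretory granule protein Scg2 had −0.50 and −0.56, and Chga −0.24 and −0.48. Mafa was not apart, at 311 CPM against 302 CPM in the SpopβKO-labelled library and 194 CPM against 196 CPM in the Spop fl/fl library.

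Of 13 alpha-cell genes, 11 of them measured in each library, 3 were higher and 0 lower in the SpopβKO-labelled members (median 0.98), and 8 were higher and 0 lower in the Spop fl/fl members (1.28). Glucagon (Gcg) had 4018 CPM in the SpopβKO-labelled members against 3656 CPM in non-members, a log2 ratio of 0.14 (0.07 to 0.20), and 10815 CPM against 5514 CPM in the Spop fl/fl library (0.97, 0.94 to 1.01). With non-members weighted to the depth of the members, the Gcg ratio turned to −0.27 in the SpopβKO-labelled library and was 0.55 in the Spop fl/fl library. A second hormone above 1% of UMIs was present in 4 of the 33 SpopβKO-labelled members (12.1%) against 14.6% of non-members, and in 11 of the 38 Spop fl/fl members (28.9%) against 10.2%. Doublets were not removed, and their part in these differences was not tested. Of 14 cytosolic heat shock genes, 3 were lower and 1 higher in the SpopβKO-labelled members (median 0.02), and 10 were lower and 1 higher in the Spop fl/fl members (−0.39). Among genes of at least 100 CPM, 2 of 8 were lower in the SpopβKO-labelled members and 8 of 9 in the Spop fl/fl members, where 19% and 30% of all such genes were. Integrated stress response genes had 3 higher and 3 lower of 26 in the SpopβKO-labelled members (−0.02) and 3 and 5 of 26 in the Spop fl/fl members (−0.12). Ddit3 had log2 ratios of −0.38 (−0.54 to −0.23) and −0.55 (−0.67 to −0.44) in these libraries. Of 18 p53 targets, 2 were higher and 2 lower in the SpopβKO-labelled members, and 1 and 1 in the Spop fl/fl members, with 16 measured in each.

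Between the libraries, macrophage genes took the first places on the higher side among insulin-led members. Of 5067 genes, 362 (7.14%) were at least 1.5-fold higher in SpopβKO-labelled than in Spop fl/fl members and 395 (7.8%) lower. The lead on the higher side was Apoe, the lipoprotein of macrophages, with 1102 UMIs in SpopβKO-labelled members against 3 in Spop fl/fl members, of which 545, 333 and 221 lay in M1, M2 and M4. Lyz2 (334 against 2), C1qb (150 against 1), C1qc (90 against 0), Tyrobp (157 against 1), Fcer1g (159 against 1), Lgals3 (301 against 6), Ctss (115 against 1), Acp5 (73 against 0) and Ms4a7 (77 against 0) filled the other first places. Without the marker-carrying members Apoe had 2 UMIs in SpopβKO-labelled members against 3 in Spop fl/fl members. On the lower side the first 10 places were, in order, Mgp (2 against 373 UMIs), Hspa1a, Gpihbp1 (0 against 27), Fabp4 (1 against 36), Tagln (0 against 24), Gria2, Igfbp7 (11 against 101), Rnase4, Ttr and Acta2 (5 against 47). They held the capillary gene Gpihbp1 and the smooth muscle genes Tagln and Acta2 beside others such as the chaperone gene Hspa1a and the ribonuclease gene Rnase4. The endothelial-marker Spop fl/fl member and the SpopβKO-labelled members with macrophage or mesenchymal markers were then left out. Mgp then had 0 against 1 UMI, Gpihbp1, Fabp4 and Tagln 0 against 0, Acta2 1 against 0 and Igfbp7 10 against 25. Hspa1a and Gria2 kept 29 and 22 UMIs in the Spop fl/fl members, and Rnase4 and Ttr had 380 and 494. Without the marker-carrying members 263 of 4641 genes (5.67%) were higher and 335 (7.22%) lower.

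Several differences between members of the 2 libraries were also present between non-members. Ins1 was higher in SpopβKO-labelled than in Spop fl/fl members by a log2 ratio of 2.77 (2.72 to 2.82), and by 1.65 (1.64 to 1.65) in non-members. Chga was higher by 1.46 in members and 1.24 in non-members, and Ddit3 lower at −0.48 and −0.63. Hspa1a, an inducible chaperone, had 0 UMIs in SpopβKO-labelled members and 29 in Spop fl/fl members, and a log2 ratio of −2.01 in non-members. Rnase4 had −2.02 in members and −1.16 in non-members. The thyroxine carrier Ttr had 109 against 522 UMIs in members, a log2 ratio of −1.85 (−2.16 to −1.55), and −0.28 in non-members. At an insulin share of at least 10%, or with at least 3 rule genes, the Ttr ratio of members turned to 0.17 and 0.88. The glutamate receptor gene Gria2 had 0 against 22 UMIs in members and a ratio of −0.15 (−0.32 to 0.01) in non-members. Over all 78 G2/M genes, SpopβKO-labelled members held 1411 UMIs (30.1 per 10000) and Spop fl/fl members 758 (12.7 per 10000), a log2 ratio of the sums of 1.31 (1.18 to 1.44), and the ratio in non-members was −0.10 (−0.12 to −0.09). Over all 68 S phase genes the members held 849 UMIs (18.1 per 10000) and 559 (9.34 per 10000), a ratio of 1.02 (0.86 to 1.17), and the ratio in non-members was −0.27 (−0.29 to −0.25). Without the marker-carrying members the ratios were 0.91 (0.77 to 1.05) for G2/M and 0.56 (0.38 to 0.73) for S phase. Among these insulin-led members, 9 SpopβKO-labelled and 1 Spop fl/fl had 3 or more rule genes.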

How the data were processed

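Single-cell RNA was counted in 1 library of islets labelled SpopβKO and 1 labelled Spop fl/fl. The authors deposited unnormalized UMI counts for every gene and barcode. Cell Ranger 6.0.0 made them, per the file headers. Besides the build mm10, Seurat 4.1.0 and R 4.1.1 appear in the submitters' processing notes. The rule by which the authors called barcodes cells is not given in the sources used here. A barcode was kept as a cell from 500 detected genes upward and up to 15% mitochondrial UMIs. No doublet caller was run and no doublets were removed. Cells were not clustered.

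The members and the gene lists were chosen with earlier results of these data known. Counts were summed per class and library and scaled to CPM with TMM (trimmed mean of M values). Shares have Clopper-Pearson intervals and ratios exact conditional intervals at 95%. PCR copies are collapsed by UMIs, and intervals cover counting error only. A sum of 0 was set to 3 counts in a ratio, and no ratio was made where both sums were at or under 3. Where 0 cells were seen, 3 cells of the total is the limit given, beside the Clopper-Pearson end where shares are compared. Values per 10000 UMIs sum a list's counts over the cells. Genes were called at 2-fold (members against non-members) or 1.5-fold (between libraries) with at least 20 UMIs in the higher sum.

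Named genes are the 8 rule genes, Spop, Spopl, Cul3, Ins1, Ins2, Gcg, Sst and Ppy; the first 15 on each side in members of both libraries and the first 10 on each side between libraries, in order of the interval end closest to a ratio of 1; and up to 6 per list with both intervals on 1 side of 0. Other list genes were named after their values were seen. Of 563 list genes 558 were matched by symbol. Positions of 74 named genes came from GENCODE on mm10, and promoters from RefSeq on GRCm38.p6. In sums simulated with counting error alone, 200 of 200 genes changed 4-fold were recovered in each library. Of the unchanged genes, 10 of 3424 were called in the SpopβKO-labelled and 7 of 4309 in the Spop fl/fl design. The simulation took only genes with an expected member sum of at least 20 UMIs and held no variation between cells. It thus does not show how often a gene is called because of a few cells. Alternatives changed the rule, depth, filters, scaling, weighting, hormone gate and second hormones. Members with exactly 2 rule genes, and members without other types' markers, were added after seeing the data. The work used matplotlib 3.10.9, pandas 2.3.3, scipy 1.17.1 and numpy 2.4.6 under Python 3.11.15.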

Additional observations from a re-analysis of the deposited data

How the results depend on the processing

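The log2 ratio of the member share, SpopβKO-labelled over Spop fl/fl, was −0.57 (−1.29 to 0.14) over all kept cells and became 3.33 with at least 3 rule genes, 0.83 with cells thinned to 5000 UMIs and 2.35 at 3000. In insulin-led cells it was −0.51 and became 2.32, 1.90 and 2.44, and 0.53 with a hormone gate of 10%. The 2.32, 1.90 and 2.44 rested on 9 against 1, 6 against 1 and 9 against 1 cells, and the 3.33 on 13 against 1. With at least 3 rule genes, every Spop fl/fl value given here rested on 1 cell. The mitochondrial limit of 10% and the minimum of 1000 genes kept the all-cell and insulin-led ratios within their intervals and below 0. Without second-hormone cells they were −0.19 and 0.01, without the deepest 5% of cells −0.14 and 0.15, and with exactly 2 rule genes −1.25 (−2.12 to −0.43) and −1.11 (−2.20 to −0.04). Genes higher in members of both libraries numbered 5, but 8 by mean per-cell CPM, 15 at 10 UMIs and 0 at 50 UMIs, at the 10% gate, without second-hormone cells and with at least 3 rule genes. With exactly 2 rule genes, and without marker-carrying members, 1 remained past the limits. Genes lower in both numbered 14, but 2 unscaled, with totals free of hormone genes or with depth-weighted non-members, 43 by mean per-cell CPM, 9 with exactly 2 rule genes and 7 without marker-carrying members. Between libraries the 362 higher genes became 148 at 50 UMIs, 556 at 10 UMIs, 177 at the 10% gate and 221 with exactly 2 rule genes. The 395 lower genes became 185 at 50 UMIs, 48 at the 10% gate and 28 with at least 3 rule genes. The S phase list's share of both lists' UMIs was 37.9% in SpopβKO-labelled and 43.0% in Spop fl/fl members. It was 35.7% and 35.5% with at least 3 rule genes, 27.0% and 39.6% at 5000 UMIs, and 45.4% in SpopβKO-labelled members with exactly 2. Single genes turned sign for Sparc (−0.0803 without marker-carrying members, at 0 UMIs set to 3), Etv1 (−0.00889 without second-hormone cells), Wdr38 (0.38 at the 10% gate) and Ttr (0.17 at the 10% gate and 0.88 with at least 3 rule genes). The cause of these shifts was not tested. No paired analysis was possible because each genotype had 1 library, and for the same reason no library could be left out. Depth limits the rest, since most members with exactly 2 rule genes had 1 UMI of each.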

Other observations

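The rule reads late-cycle genes, and some cells with many S phase genes were not members. With at least 35 of the 68 S phase genes detected, 2 further SpopβKO-labelled cells and 1 Spop fl/fl cell were found. Both SpopβKO-labelled cells carried mesenchymal markers, had 41 and 40 S phase genes at 37.3 and 32.8 UMIs per 10000, and had 1 and 0 rule genes. The Spop fl/fl cell carried all 8 macrophage markers and had 37 S phase genes at 36.6 UMIs per 10000, 9 UMIs of Pcna and 0 rule genes. Their G2/M values were 19.9, 17.0 and 8.44 UMIs per 10000, below the 99th percentiles of 30.1 and 27.2 given for non-members of the SpopβKO-labelled and Spop fl/fl libraries. The minimum of 35 genes was chosen after the values had been seen.

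Barcodes removed by the cell filter held no further members. Among 1191 SpopβKO-labelled and 918 Spop fl/fl barcodes left out, 0 and 0 had at least 2 rule genes, which allows shares of up to 0.252% and 0.327%, and none had more than 1.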
